A study of Mus musculus with 12 samples.

Results

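The insulin-like growth factor (IGF) ligands Igf1 and Igf2, the receptors Igf1r and Igf2r, and the binding proteins Igfbp2, Igfbp3, Igfbp4, Igfbp5 and Igfbp6 were described in the mouse hypothalamus after chronic alcohol drinking. Every gene probe whose name on the array equaled one of these 9 symbols, of 27827 gene names on the array, was taken, which gave 20 of the 41174 gene probes. All 20 passed the filter on dim spots, as did 32376 probes of the whole array. RNA was hybridized to 12 one-color Agilent arrays, each with the pooled hypothalami of male ICR mice, an outbred stock. The mice were 3 weeks old when they were given 2 drinking tubes, and the last day of drinking is day 51 in the sample labels and day 57 in the description of the series.

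The water-only group had water in both tubes, and its 9 mice made 3 pools. The alcohol mice, 19 in 9 pools of 1 to 3 mice, could choose between water and 5% or 10% alcohol. By label the alcohol pools are low, early high or late high drinkers, 3 pools in each class, and the labels give neither the concentration offered to a pool nor the days that set early apart from late. A value therefore belongs to a pool and not to a mouse, and p-values measure the spread between pools. The arrays lay on 3 slides of 4. All the water pools were on slide 1, beside low drinker pool 1. The other low drinker pools, 2 and 3, shared slide 2 with 2 early high drinker pools, numbers 1 and 2. The late high drinkers were on slide 3 together with early high drinker pool 3. Slide 1 was scanned on another day than slides 2 and 3. Apart from the contrast with low drinker pool 1, a difference from water cannot be told apart from a difference between slides.

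IGF-1 and IGF-2 are small secreted proteins related to insulin. Both act through the IGF-1 receptor, a tyrosine kinase that feeds the PI3K-Akt and MAP kinase pathways, whereas the IGF-2 receptor, also the mannose-6-phosphate receptor, takes IGF-2 into the cell for breakdown. The IGFBPs bind both ligands outside the cell, and proteases release the ligands again. In the adult brain Igf1 is made by neurons and glia, while Igf2 comes mainly from the leptomeninges and the choroid plexus. Growth hormone drives Igf1 in the liver, and IGF-1 in turn acts on the hypothalamus and the pituitary.

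Igf1 had 4 probes, Igf1r 4, Igfbp3 3, and Igf2, Igfbp4 and Igfbp5 2 each. Igf2r, Igfbp2 and Igfbp6 had 1 each. The transcript accession of 14 probes was found in the RefSeq gene table (GRCm38.p6, used for names alone), each under the same symbol. Where a gene had several probes, the one with the highest mean was used to describe it. The Igf1 probe chosen in this way, A_51_P147942, lies at chr10:87393516-87393575 of mm9 on the + strand by the array files. It was printed as 10 spots on each array. It is shown here because it overlaps the real-time PCR assay of the study. Of the 20 member probes, 1 held the complement of the reverse Igf1 primer and 0 held the forward primer. Bases 13 to 42 of the probe are given, with the primer site at bases 18 to 37 in capitals, followed by the primers.
Igf1 probe A_51_P147942: tgctgCTTGAGCAACCTGCAAAACAtcgaa
Igf1 forward primer: tgcaaaggagaaggaaagga
Igf1 reverse primer: tgttttgcaggttgctcaag

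A further Igf1 probe, A_52_P536434 at chr10:87376418-87376477 on the + strand, could be read without a stop codon in 1 of its 3 forward frames, starting at base 3. Capitals mark the 4 TGT and TGC codons of that frame, which code for cysteine. The Igfbp2 probe, A_51_P423308 at chr1:72898677-72898736 on the + strand, ended in a TAA stop codon of its first frame, shown in capitals. The Igfbp4 probe A_51_P398971, at chr11:98909591-98909650 on the + strand, was open in 1 of its 3 forward frames. These sequences are given as the stretches whose values are described below for these probes, and they were not assigned to exons.
Igf1 probe A_52_P536434: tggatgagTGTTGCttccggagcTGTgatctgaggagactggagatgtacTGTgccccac
Igfbp2 probe A_51_P423308: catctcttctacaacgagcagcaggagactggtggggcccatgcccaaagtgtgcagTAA
Igfbp4 probe A_51_P398971: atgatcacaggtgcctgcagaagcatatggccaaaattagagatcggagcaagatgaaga

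All values are log2 signal intensities minus the 75th percentile of the same array, called scaled log2 signal here. A level on this scale is compared between arrays for 1 probe. Levels of different probes enter together only in the choice of a gene's probe, in the summed levels of marker lists and in a gene's share of such a sum. The share of spots well above background ran from 67.0% to 79.3% per array, and 0 spots were saturated. Of 14 hypothalamic marker genes 13 had a probe, and 12 of these were well above background on every array. The array of low drinker pool 2 stood apart, with a median correlation of 0.981 with the other arrays over 29521 probes, against 0.991 to 0.994 for the rest. The number of arrays limits the precision of every difference.

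With alcohol, Igf1 was higher on all 4 of its probes, Igfbp4 on both, and Igfbp6 on its only probe, by 0.25 to 0.50 on the log2 scale. Within slide 1, where low drinker pool 1 is the sole alcohol pool, both Igfbp4 probes and the Igf1 probe A_52_P306327 were instead lower than in water. At an adjusted p of 0.05 in limma 0 of the 20 members passed (percent called over all 32376 probes, 0), where the smallest adjusted p of a member was 0.819. At an unadjusted p under 0.05 there was 1 member, the Igf1 probe A_51_P147942, against 5.53% of all probes. Of the 20 member probes, several of which measure the same gene, 17 were higher and 3 lower in the alcohol pools, and over all probes 59.6% were higher. By the probe that describes each gene, 8 of the 9 genes were higher. The median difference of the members was 0.16 and that of all probes 0.03. With quantile normalization 14 of the 20 were higher, the Igf1 probe A_52_P306327 by 0.04 in place of 0.25, and the probes with an unadjusted p under 0.05 over the whole array split into 996 higher and 987 lower, in place of 1246 and 543.

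**Figure D1:**
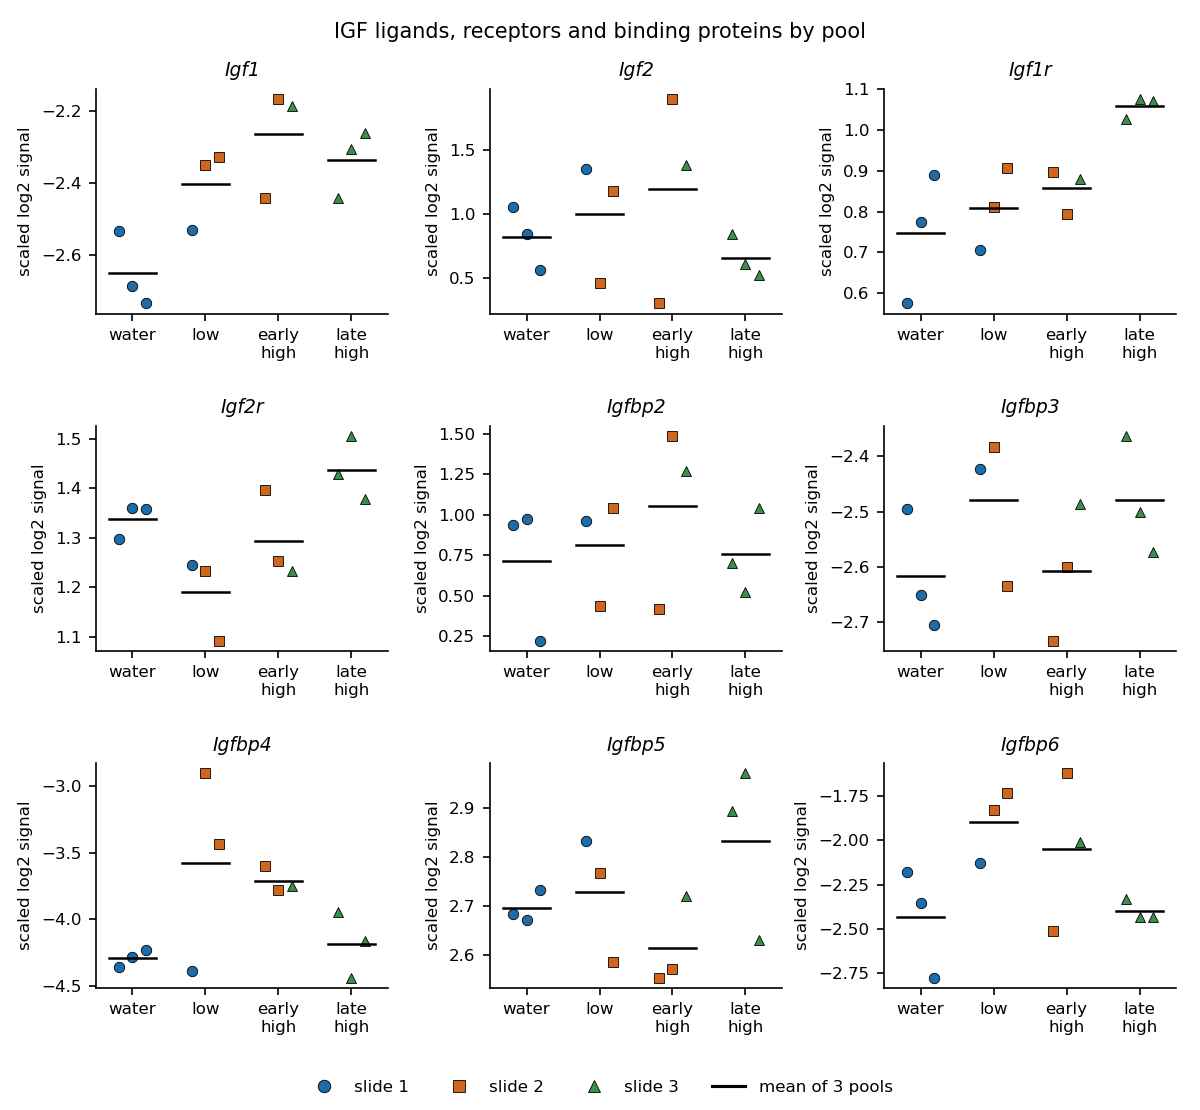
Scaled log2 signal (vertical axes) of the 9 genes in the 12 pools, grouped as water, low, early high and late high drinkers (horizontal axes). Each symbol is 1 pool, its shape and color give the slide, and bars are the means of 3 pools. The Igf1 points of the water pools lie at the bottom of their panel with low drinker pool 1 beside them, and the late high drinker points of Igf1r lie above all others.

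Igf1 (A_51_P147942) was at -2.53, -2.69 and -2.74 in water pools 1, 2 and 3. It was at -2.53, -2.35 and -2.33 in the low drinker pools and at -2.44, -2.17 and -2.19 in the early high drinker pools. The late high drinker pools were at -2.44, -2.31 and -2.26. The water pools were the 3 lowest and did not overlap with the 9 alcohol pools, as held for 1 member and for 0.982% of the 29521 probes with a value on all arrays. The gap that separates them was 0.0029, between low drinker pool 1 and water pool 1. The SEM of the 10 spots on an array lay between 0.0103 and 0.0264, so the order of these 2 pools was not resolved.

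Water pools had a mean Igf1 of -2.65 ± 0.10 (SD, n = 3), whereas the alcohol pools had -2.33 ± 0.12 (SD, n = 9), a difference of 0.32 (standard error 0.08, 95% interval 0.14 to 0.49). This is 1.25-fold. An exact permutation test on the 220 possible choices of 3 arrays gave a 2-sided p of 0.00455, the smallest it can give. Over all probes the adjusted p was 0.819 in limma. The difference was in the same direction in the 9 alcohol pools. The study chose Igf1 for PCR on the same RNA after these arrays, so its direction here is not independent evidence.

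The early high drinkers had the highest mean of Igf1 on A_51_P147942 and water the lowest, with the late high and low drinkers between them. Against water the differences were 0.25 (standard error 0.10) in low, 0.39 (standard error 0.10) in early high and 0.32 (standard error 0.10) in late high drinkers, with adjusted p-values of 0.475, 0.887 and 0.179 in limma. The value in low drinkers was 0.14 with quantile normalization and 0.10 with array medians. On this probe the 3 drinking groups did not differ beyond their spread, as late minus early high drinkers gave -0.07 (standard error 0.10) and high minus low drinkers 0.10 (standard error 0.08), or -0.04 (standard error 0.13) with slide as a fixed block. These contrasts with water share the 3 water pools.

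Within slide 1 the difference from water was smaller on this probe, where low drinker pool 1 was 0.12 above the mean of the water pools. On slide 2 the early high minus low difference was 0.03, and on slide 3 the late high pools were 0.15 below early high drinker pool 3 (-0.15). The mean of the 4 arrays was -2.62 on slide 1, -2.32 on slide 2 and -2.30 on slide 3. With slide as a fixed block, the difference from water was 0.12 (standard error 0.13) for all alcohol pools, 0.15 (standard error 0.18) for early high and 0.01 (standard error 0.22) for late high drinkers. The first value is again that of low drinker pool 1, the only alcohol pool on the slide of the water pools. This holds for every alcohol-minus-water and low-minus-water value with this block. Blocked early and late high values reach water only through that pool. Those of late high drinkers also pass through early high drinker pool 3 alone.

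**Figure D2:**
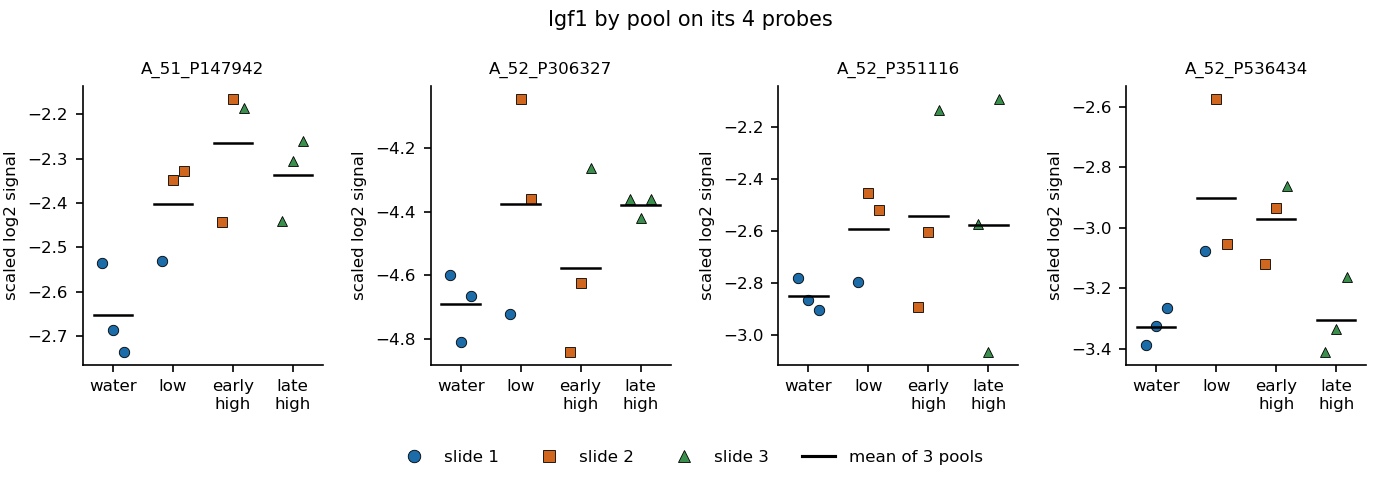
Scaled log2 signal of Igf1 on its 4 probes (vertical axes) in the 3 pools of each group (horizontal axes). Symbols give the slide and bars the mean of 3 pools. On the probe with 10 spots at the left the water pools lie lowest, beside low drinker pool 1, while on A_52_P536434 at the right the late high drinker pools lie beside the water pools.

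The other Igf1 probes had 1 spot each and wider errors. A_52_P306327, made to the cDNA AK050118, was higher by 0.25 (standard error 0.14) in alcohol pools, A_52_P351116 by 0.28 (standard error 0.18) and A_52_P536434 by 0.27 (standard error 0.14). Their exact permutation p-values were 0.118, 0.173 and 0.114. With slide as a fixed block A_52_P306327 turned to the opposite direction, with -0.03 (standard error 0.24) for all alcohol pools, -0.56 (standard error 0.19, adjusted p = 0.600 in limma) for early high and -0.68 (standard error 0.24, adjusted p = 0.577) for late high drinkers against water. In late high drinkers the block also gave -0.65 (standard error 0.51) for A_52_P351116 and -0.41 (standard error 0.30) for A_52_P536434. Between high and low drinkers the block gave -0.59 (standard error 0.15, adjusted p = 0.138 in limma) for A_52_P306327, -0.48 (standard error 0.31) for A_52_P351116 and -0.43 (standard error 0.18, adjusted p = 0.332) for A_52_P536434. Within slide 2 early high minus low was -0.53 on A_52_P306327. There low drinker pool 2, the array that stood apart, was at -4.05 and low drinker pool 3 at -4.36. Early high drinker pool 1, at -4.84, was not well above background on this probe. Within slide 3 late minus early high was -0.45 on A_52_P351116 and -0.44 on A_52_P536434. Averaged over the 4 probes the difference was 0.28 (exact permutation test, 2-sided, p = 0.0182).

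The probe A_52_P536434 ordered the groups differently. It was at -3.39, -3.33 and -3.27 in the water pools and at -3.08, -2.57 and -3.05 in the low drinker pools. In the early high drinker pools it was at -3.12, -2.94 and -2.86, and in the late high drinker pools at -3.41, -3.34 and -3.16. Low and early high drinkers were above all water pools, whereas late high drinkers overlapped with water. Against water limma gave 0.43 (standard error 0.13, adjusted p = 0.399) in low, 0.36 (standard error 0.13, adjusted p = 0.887) in early high and 0.02 (standard error 0.13) in late high drinkers. Low drinker pool 2, the array that stood apart, was 0.75 above the water mean, and pools 1 and 3 were 0.25 and 0.27 above it. The slide block gave low minus water as 0.25 (standard error 0.18) and early high minus water as 0.04 (standard error 0.24). Late minus early high drinkers was -0.33 (standard error 0.13, adjusted p = 0.373 in limma).

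Igf2, the second ligand, was at 1.05, 0.84 and 0.56 in the water pools on A_51_P516826. It was at 1.35, 0.46 and 1.18 in low drinker pools and at 0.30, 1.90 and 1.38 in early high drinker pools. Late high drinker pools were at 0.84, 0.60 and 0.52. The groups overlapped, and the lowest and the highest pool were both early high drinkers on the same slide, 3.04-fold apart. Alcohol and water pools differed by 0.13 (standard error 0.31, 95% interval -0.54 to 0.80, exact permutation p = 0.682). The difference was 0.54 (standard error 0.55) with slide as a fixed block, and with 1 array left out it ran from 0.0040 without water pool 3 to 0.25 without water pool 1.

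The second Igf2 probe, A_51_P516833, gave 0.17 (standard error 0.31) for alcohol minus water. It too had its lowest value, -1.28, in early high drinker pool 1 and its highest, 0.41, in early high drinker pool 2. The main Igf2 probe also had 10 spots on each array, with a median SD of 0.06 between spots and an SD of 0.47 between the 12 arrays. For Igf1 the corresponding values were 0.06 and 0.18.

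**Figure D3:**
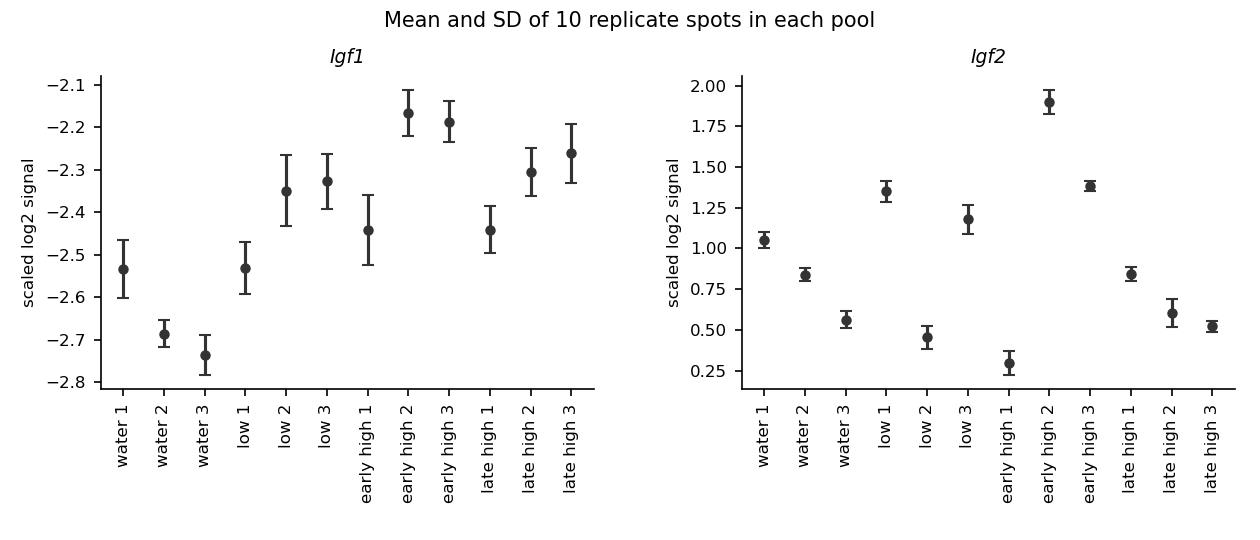
Mean and SD (bars) of the 10 spots of the Igf1 and the Igf2 probe on each of the 12 arrays, in scaled log2 signal (vertical axes). The SD between arrays, 0.18 for Igf1 and 0.47 for Igf2, exceeds the median SD between spots, 0.06 for both, and Igf2 of early high drinker pools 1 and 2 is at 0.30 and 1.90.

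Igf2 moved with most genes of a list for the leptomeninges, the membranes on the brain surface. The list held 10 genes, Col1a1, Col1a2, Col3a1, Dcn, Lum, Ogn, Slc6a13, Slc22a6, Aldh1a2 and Fmod, all well above background on every array. Their summed linear level lay between 8.31 and 9.30 in water, 7.94 and 11.6 in low, 7.36 and 12.6 in early high and 7.30 and 9.71 in late high drinkers. The 4 pools with the highest Igf2 were the 4 with the highest sum. Over the 12 arrays Pearson's r between Igf2 and log2 of the sum was 0.936 (permutation p = 0.00001, the smallest it can give, adjusted over 9 members 0.00009) and Spearman's rho was 0.937 (permutation p = 0.00005, adjusted 0.00045). Without the 2 pools farthest from the median r was 0.906, and within slides 1, 2 and 3 it was 0.899, 0.961 and 0.965. Gene by gene, r with Igf2 over the 12 arrays was 0.815 to 0.968 for 8 of the 10. It was 0.330 for Dcn and 0.162 for Lum, both genes of proteoglycans. The Dcn probe gave 37.6% of the summed signal, which is a share of intensity over different probes and not of RNA. In early high drinker pool 2, with the highest Igf2, Dcn was at 1.71 and Lum at -2.59, in the lower part of their ranges. Whether tissue at the brain surface set the level of Igf2 was not tested.

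Choroid plexus markers spanned 4.42 to 5.62 in summed level over all pools. Of these, Ttr, the transthyretin gene and a defining marker of that tissue, ran from -6.36 to -1.06 in scaled log2 signal, and its relation to Igf2 was not tested. By the largest Pearson's r over the 12 arrays among 20920 probes with a symbol, the genes most like Igf2 included Slc22a6 (0.97), Slc6a13 (0.96), Ranbp3l (0.95) and Foxc2 (0.94). The first 2 are transporters on the leptomeningeal list. After slide means were subtracted these 4 values were 0.96 to 0.99. For Igf1 the 5 most alike were Eif4a2 (0.91), Sparcl1 (0.88), Jun (0.87), Atp5c1 (0.86) and Chst2 (0.86), with 0.60 to 0.92 after slide means were subtracted. These likenesses are descriptions over arrays that share slides and scaling.

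**Figure D4:**
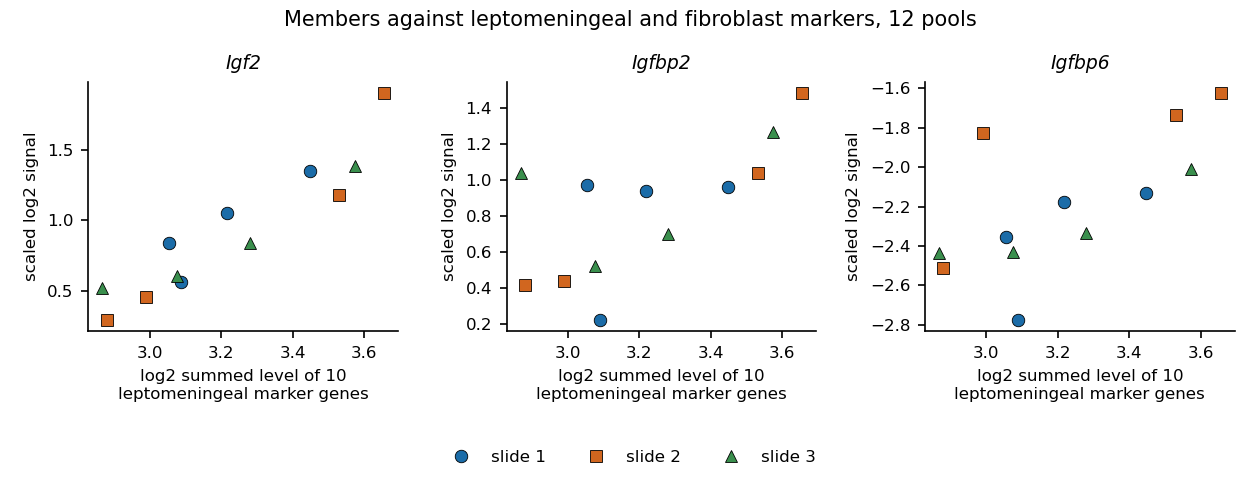
Scaled log2 signal of Igf2, Igfbp2 and Igfbp6 (vertical axes) against log2 of the summed linear level of 10 leptomeningeal marker genes (horizontal axes) in the 12 pools, with symbols for the slide. Igf2 follows the sum with r = 0.936, Igfbp2 and Igfbp6 more loosely with 0.690 and 0.682.

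Igf1r, the receptor for both ligands, was highest in late high drinkers on the probe used to describe it. On A_51_P474538 (chr7:75376998-75377057, + strand) it was at 0.58, 0.77 and 0.89 in the water pools and at 0.71, 0.81 and 0.91 in the low drinker pools. In early high drinker pools it was at 0.90, 0.80 and 0.88, and in late high drinker pools at 1.03, 1.08 and 1.07. All late high drinker pools were above the other 9 pools, and the other 3 groups overlapped. Late high drinkers were above water by 0.31 (standard error 0.08, adjusted p = 0.148 in limma) and above early high drinkers by 0.20 (standard error 0.08, 95% interval 0.01 to 0.39, adjusted p = 0.384).

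The late high drinker pools share slide 3 with early high drinker pool 3, which was 0.18 below their mean. With slide as a fixed block late high minus water was 0.13 (standard error 0.20). Over all alcohol pools the difference from water was 0.16 (standard error 0.09, exact permutation p = 0.114), and within slide 1 it was -0.04. It was 0.08 without water pool 1 and 0.23 without water pool 3.

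The Igf1r probes differed in their contrasts with water. A_52_P634111 was higher in late high drinkers than in water by 0.24 (standard error 0.10, adjusted p = 0.270 in limma), and higher in high than in low drinkers by 0.23 (standard error 0.08, adjusted p = 0.266). A_51_P318365 differed between late high drinkers and water by -0.00 (standard error 0.12) and A_52_P668647, made to the cDNA AK044980, by 0.04 (standard error 0.13). The slide block gave late high minus water as 0.23 (standard error 0.23), 0.13 (standard error 0.32) and 0.25 (standard error 0.32) on these 3 probes. Within slide 3 the mean of the late high drinkers was above early high drinker pool 3, a single array, on all 4 Igf1r probes, by 0.17 to 0.22. On A_51_P318365 late high drinker pool 3, at 0.34, was below early high drinker pool 3, at 0.36, while late high drinker pool 2 was at 0.83. Averaged over the 4 probes, alcohol minus water was 0.04 (exact permutation p = 0.559).

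Igf2r (A_51_P125467), which clears IGF-2, was at 1.30, 1.36 and 1.36 in the water pools. It was at 1.25, 1.23 and 1.09 in low drinker pools, at 1.40, 1.25 and 1.23 in early high drinker pools and at 1.43, 1.50 and 1.38 in late high drinker pools. Every low drinker pool was below every water pool, and every late high drinker pool above them. Low minus water was -0.15 (standard error 0.07, adjusted p = 0.526 in limma) and late high minus water 0.10 (standard error 0.07). With slide as a fixed block these were -0.09 (standard error 0.10) and 0.27 (standard error 0.16), and early high minus water turned from -0.04 (standard error 0.07) to 0.07 (standard error 0.13). High drinkers were above low drinkers by 0.18 (standard error 0.06, adjusted p = 0.234 in limma), and by 0.26 (standard error 0.10, adjusted p = 0.283) with slide as a fixed block. Over all alcohol pools the difference from water was -0.03 (standard error 0.08, 95% interval -0.20 to 0.14).

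Igfbp2, an IGFBP of brain and cerebrospinal fluid, had an SD of 0.42 among the water pools and of 0.26 to 0.57 in the drinking groups. It was at 0.94, 0.97 and 0.22 in the water pools and at 0.96, 0.44 and 1.04 in low drinker pools. Early high drinker pools were at 0.42, 1.49 and 1.27, and late high drinker pools at 0.70, 0.52 and 1.04. The groups overlapped, and alcohol minus water was 0.16 (standard error 0.24, exact permutation p = 0.545). It was -0.08 without water pool 3. Pearson's r with log2 of the leptomeningeal sum was 0.690 (permutation p = 0.0142, adjusted over 9 members 0.0468) and Spearman's rho 0.517 (permutation p = 0.0899, adjusted 0.202). Without the 2 pools farthest from the median r was 0.429, and within slides 1, 2 and 3 it was 0.415, 0.970 and 0.402.

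Igfbp3, the main carrier of IGF-1 in blood, was described by A_52_P253179 and ranged over 1.29-fold. Alcohol minus water was 0.09 (standard error 0.08, 95% interval -0.08 to 0.27), and the groups overlapped. The difference was 0.05 without water pool 3 and 0.16 without water pool 1. A_52_P851352, made to the cDNA AK045003 and well above background on 3 water and 6 alcohol arrays, gave 0.11 (standard error 0.11), which turned to -0.20 with quantile normalization. A_51_P228472 was well above background on 0 of the 12 arrays, and no fold is given for it, although it is counted and plotted among the 20.

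Igfbp4, which binds IGF-1 until the protease PAPP-A cuts it, had the largest alcohol-minus-water differences among the 20 probes, 0.50 and 0.47. On A_52_P257502 (chr11:98913334-98913393, + strand) it was at -4.35, -4.28 and -4.23 in the water pools and at -4.39, -2.90 and -3.43 in the low drinker pools. Early high drinker pools were at -3.60, -3.78 and -3.75, and late high drinker pools at -3.95, -4.44 and -4.16. Low drinker pool 1, on the slide of the water pools, was just below them, and the 5 highest pools were the 4 of slide 2 and early high drinker pool 3. The mean of the 4 arrays was -4.31 on slide 1, -3.43 on slide 2 and -4.07 on slide 3.

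Low drinkers were above water in Igfbp4 by 0.71 (standard error 0.30, adjusted p = 0.498 in limma). Without low drinker pool 1 the difference was 1.12 (standard error 0.17, adjusted p = 0.00548), where 9.37% of all probes passed an adjusted p of 0.05 and low drinkers and water shared no slide. Without low drinker pool 2, the array that stood apart, it was 0.38 (standard error 0.24, adjusted p = 1). Slide as a fixed block gave -0.10 (standard error 0.23). Early high drinkers were above water by 0.58 (standard error 0.30, adjusted p = 0.887), without overlap, and late high drinkers by 0.11 (standard error 0.30). In a fit of early high drinkers and water alone the adjusted p was 0.0432, with a standard error of 0.07, and 0.63% of all probes passed. Slide as a fixed block turned both directions, to -0.62 (standard error 0.30, adjusted p = 0.758) in early high and -1.06 (standard error 0.38, adjusted p = 0.583) in late high drinkers. High minus low drinkers was -0.37 (standard error 0.26, adjusted p = 0.495), and -0.74 (standard error 0.23, adjusted p = 0.208) with slide as a fixed block. Without low drinker pool 1 it was -0.78 (standard error 0.15, adjusted p = 0.0202), where 8.82% of all probes passed an adjusted p of 0.05. Without low drinker pool 2, the highest pool, no member passed in this contrast. Low drinker pools 1 and 3, at -4.39 and -3.43, lay below and above the means of both early high (-3.71) and late high drinkers (-4.18).

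Over all alcohol pools Igfbp4 was higher by 0.47 (standard error 0.27, exact permutation p = 0.141), and by 0.28 (standard error 0.18) without low drinker pools 2 and 3. Its probe A_51_P398971 gave 0.50 (standard error 0.28) and the same highest pool, low drinker pool 2, at -3.48. Within slide 1 the 2 probes gave -0.10 and -0.21 for low drinker pool 1 against water. With log2 of the leptomeningeal sum Igfbp4 had r = 0.060 (permutation p = 0.853) and Spearman's rho 0.042 (permutation p = 0.903).

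**Figure D5:**
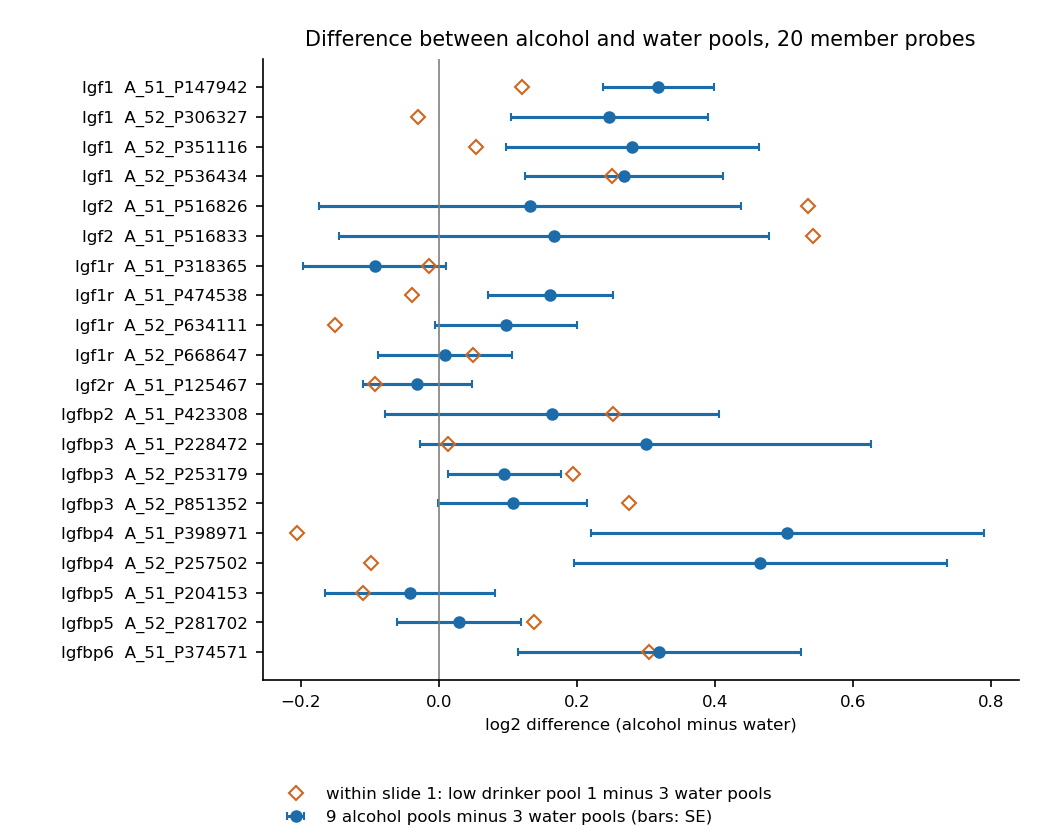
Log2 difference between alcohol and water (horizontal axis) for the 20 member probes (vertical axis). Filled circles are 9 alcohol minus 3 water pools with the standard error, open diamonds are low drinker pool 1 minus the 3 water pools of the same slide. For Igf1 A_51_P147942 the circle is at 0.32 and the diamond at 0.12, and for both Igfbp4 probes the diamond lies below 0.

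Igfbp5, an IGFBP that binds extracellular matrix, had an SD of 0.03 between the 3 water pools on A_52_P281702 and of 0.32 on A_51_P204153. Alcohol minus water was 0.03 (standard error 0.09, 95% interval -0.17 to 0.23) on the first probe and -0.04 (standard error 0.12) on the second, and with array medians in place of the 75th percentile the first was -0.03. The early high drinkers had the lowest mean, 2.62 ± 0.09 (SD, n = 3), and the late high drinkers the highest, 2.83 ± 0.18 (SD, n = 3). Late minus early high drinkers was 0.22 (standard error 0.10, adjusted p = 0.408 in limma), and 0.11 (standard error 0.14) with slide as a fixed block.

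Igfbp6, which prefers IGF-2, was at -2.18, -2.35 and -2.77 in the water pools and at -2.13, -1.83 and -1.74 in low drinker pools. It was at -2.51, -1.62 and -2.01 in early high drinker pools and at -2.33, -2.43 and -2.43 in late high drinker pools. All low drinker pools were above all water pools, while early and late high drinkers overlapped with water. Low minus water was 0.54 (standard error 0.22, adjusted p = 0.488 in limma), and 0.30 (standard error 0.32) with slide as a fixed block. Late high minus water was 0.04 (standard error 0.22) and with the block -0.37 (standard error 0.54). All alcohol pools together gave 0.32 (standard error 0.21, exact permutation p = 0.164), with 0.15 without water pool 3 and 0.45 without water pool 1. Pearson's r with log2 of the leptomeningeal sum was 0.682 (permutation p = 0.0156, adjusted over 9 members 0.0468) and Spearman's rho 0.685 (permutation p = 0.0168, adjusted 0.0756). It was 0.530 without the 2 pools farthest from the median, and 0.669, 0.792 and 0.920 within slides 1, 2 and 3.

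For Igf2r and log2 of the leptomeningeal sum r was -0.616 (permutation p = 0.0311, adjusted over 9 members 0.0700, Spearman's rho -0.538, permutation p = 0.0742). Igf1, Igf1r, Igfbp3 and Igfbp5 had r between -0.288 and 0.363, with adjusted p-values of 0.436 to 0.856 over 12 arrays by permutation. Within slides 1, 2 and 3, of 4 arrays each, r was 0.820, 0.852 and 0.197 for Igf1, and after slide means were subtracted it was 0.604. Without the 2 pools farthest from the median it was -0.077. Within slides r ran from -0.915 to 0.916 for Igf1r, Igfbp3 and Igfbp5, and for Igf2r it was -0.984, -0.643 and -0.637. The part of leptomeningeal tissue in the levels of Igfbp2 and Igfbp6 was not tested. Blocked on slide, alcohol minus water was -0.09 (standard error 0.12) for Igf2r, 0.25 (standard error 0.46) for Igfbp2, 0.19 (standard error 0.14) for Igfbp3 and 0.14 (standard error 0.13) for Igfbp5.

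Counted by group, 4 members had an unadjusted p under 0.05 in low drinkers against water, against 9.63% of all probes, and all 4 were higher, against 8.88% of all probes that were higher at that p. They were 2 probes of Igf1 and those of Igfbp4 and Igfbp6 named above. Without low drinker pool 1 the count was 8 members beside 21.7% of all probes, and without low drinker pool 2 it was 1 member beside 4.49%. It was also 1 member without low drinker pool 3, water pool 2 or water pool 3, beside 7.02%, 6.36% and 6.28% of all probes. Blocking on slide left 0 members beside 3.55% of all probes, and normexp gave 7 beside 12.1%. Groups did not overlap for 3 members that were higher and 1 that was lower, against 6.9% and 2.16% of all probes. In early high drinkers 2 members, both of Igf1, passed against 4.78% of all probes, and 4 higher members did not overlap with water against 10.8%. In late high drinkers 3 members passed against 15.7%, with 5 higher and 1 lower member without overlap against 12.5% and 13.5%. The 3 of 20 in late high drinkers is near the share over all probes. When slide was a fixed block the early high count was 1 member, beside 7.09% of all probes, and the late high count 2, beside 7.88%. These members, the Igf1 probe A_52_P306327 in both and Igfbp4 A_52_P257502 in late high drinkers, were lower than in water, whereas the 2 and 3 without the block were higher. With quantile normalization the probes at an unadjusted p under 0.05 in low drinkers split into 1544 higher and 1588 lower, in place of 2871 and 244, and 12 rather than 16 of the 20 members were higher, beside 65.7% of all probes with the 75th percentile.

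No member passed an adjusted p of 0.05 in these contrasts or between drinking groups. Over all probes 0.39% passed for low drinkers against water, 0 for early high and 0 for late high drinkers against water, 0.294% for high against low drinkers and 0 for late against early high drinkers. High against low drinkers gave 2 members at an unadjusted p under 0.05, Igf2r and an Igf1r probe, against 15.1% of all probes. Both were higher, as were 3.32% of all probes at that p. Blocking on slide gave 4, beside 14.4%, with Igf2r higher and the Igf1 probes A_52_P306327 and A_52_P536434 and the Igfbp4 probe A_52_P257502 lower. The split of all probes depended on the scaling, with 1074 higher and 3813 lower here, 2838 and 2070 with quantile normalization and 3900 and 1893 with array medians, and of the 20 members 7, 15 and 15 were higher under these 3 scalings. Late against early high drinkers gave 2, an Igf1r probe that was higher and an Igf1 probe that was lower, against 12.3%. In neither is 2 of 20 above the share over all probes. With 1 array left out at a time, the members at an unadjusted p under 0.05 numbered 1 to 3 for alcohol against water, 1 to 6 for early high and 2 to 4 for late high drinkers against water, 2 to 4 for high against low and 0 to 6 for late against early high drinkers. The shares over all probes then ran from 3.73% to 9.04%, 3.22% to 8.31%, 11.3% to 17.8%, 9.45% to 25.6% and 7.34% to 14.9%.

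Of 51 other genes of the IGF and insulin system, growth hormone axis and downstream kinases, 49 had a probe and 46 were tested. None passed an adjusted p of 0.05 in any of the 6 comparisons. At an unadjusted p under 0.05, 1 gene was higher and 0 lower with alcohol, beside 5.53% of all probes. This was Igfbp7, a low-affinity IGF binding protein of blood vessels, by 0.15 (adjusted p = 0.819 in limma). The median over the 46 genes was 0.03, as over all probes.

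By group and at the same p, 6 of the 46 were higher and 0 lower in low drinkers against water, beside 9.63% of all probes, 8.88% higher, a split that the scaling changed as given above. Among them were Igfbp1 by 1.30 and the stanniocalcin Stc1, an inhibitor of pappalysin proteases, by 0.52. Igfbp1 was well above background on 2 water and 3 low drinker arrays, and Stc1 on all 12. In early high drinkers 1 was higher and 1 lower, beside 4.78% of all probes, and in late high drinkers 5 were higher and 2 lower, beside 15.7%. Both counts are near the share over all probes. Gsk3b, a kinase that Akt inhibits, was above water by 0.21 in early high and by 0.20 in late high drinkers, and above low drinkers by 0.23 in high drinkers. The smallest adjusted p of the genes named in this paragraph was 0.147 in limma.

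High against low drinkers gave 3 higher and 7 lower of the 46, beside 15.1% of all probes, whose split between higher and lower turned with the scaling as given above. Late against early high drinkers gave 0 higher and 3 lower, beside 12.3%. Growth hormone, Gh, was lower by 2.59 (a difference of -2.59, adjusted p = 0.234 in limma) in high than in low drinkers, and well above background on 7 of the 12 arrays. Low drinker pool 1 was at -0.93 and the other low drinker pools at -4.14 and -5.01, and without pool 1 the difference was -1.37 (standard error 0.54, adjusted p = 0.159). The anterior pituitary list, to which Gh belongs, was at a summed linear level of 3.28 to 12.5 in water, 6.99 to 9.44 in low, 0.947 to 3.39 in early high and 3.95 to 6.47 in late high drinkers, and the part of pituitary tissue in the level of Gh was not tested. H19, the imprinted neighbor of Igf2, differed by -1.06 (adjusted p = 0.327 in limma) between late and early high drinkers, where Igf2 differed by -0.54 (standard error 0.37).

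Other tissues also varied between pools. Thalamic markers summed to 10.6 to 12.3 in water and 8.23 to 19.6 in low drinkers. They summed to 7.55 to 19.2 in early high and 13.6 to 27.3 in late high drinkers. The Igf1r probe A_51_P474538 was highest in late high drinkers. Its highest pool, late high drinker pool 2 at 1.08, had a thalamic sum of 13.6, and early high drinker pool 3, at 0.88, had 19.2. Astrocyte markers lay at 42.7 to 46.8 in late high drinkers and 38.0 to 43.0 in water. Blood markers lay at 74.7 to 102.2 in late high drinkers and 120.5 to 147.7 in water. The part of these tissues in Igf1r was not tested. Summed levels of the endothelial and mural cell list lay between 30.9 and 38.4, of microglia between 10.6 and 12.9, of astrocytes between 38.0 and 46.8, of oligodendrocytes between 204 and 263, of cortex and striatum between 3.64 and 4.65 and of blood between 74.7 and 148. In all these bulk samples fewer cells of a type and less RNA per cell cannot be told apart.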

How the data were processed

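The authors deposited the scanner output of 12 one-color Agilent arrays, with background-corrected signal intensity on a linear scale (Feature Extraction 10.5.1.1 and mm9 in the file headers) and no scaling between arrays, and a table of signal intensity per probe that equals the mean over spots. Here each intensity was taken to log2 minus the array's 75th percentile over 43379 spots (1512 to 1853). Spots that were non-uniform outliers or had signal/noise below 2 were left out, the remaining spots of a probe were averaged, and probes with values on at least 2 water and 5 alcohol arrays were tested in limma 3.58.1 (R 4.3.3, lmFit, eBayes, Benjamini-Hochberg). Alcohol against water was fitted with 2 groups, and the other 5 comparisons with 4 groups. Single members were tested by exact permutation, 2-sided, and relations with 100000 permutations. The members, lists and tests were chosen with earlier results of these data known. The members are all probes of the 9 symbols, described by the probe with the highest mean. Marker and pathway lists are those in the text, besides hypothalamus, choroid plexus, endothelium, microglia, astrocyte, oligodendrocyte, blood, cortex, striatum, thalamus and pituitary.

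In a test on simulated data (32376 probes, alcohol against water) 152 of 200 probes shifted by a log2 of 1 passed. Alternatives covered background correction (normexp, offset 50), scaling, the deposited table, filters, slide, scan day and replicate number as blocks, t-tests, and each array left out. Figures were drawn with matplotlib 3.10.9. The PCR and the behavioral measurements were not used here. Some genes that these rules picked are not reported here.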

Additional observations from a re-analysis of the deposited data

Results flagged for a closer look

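The Igf1r probe A_51_P318365 was farther from the other alcohol pools in late high drinker pool 2 than in any other, at 0.83, with a gap to the next of 0.498 of the range of the 9 alcohol pools. Of 20 probes 1 had such a pool, and chance gives about 1 in 20.

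Igf2r was below water in every low drinker pool and above water in every late high drinker pool, and the difference between these groups was -0.2468. This difference was not tested.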

How the results depend on the processing

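No member passed an adjusted p of 0.05 in alcohol against water, late high drinkers against water or late against early high drinkers under any alternative that was run, and 439 values of single members kept direction and side of the threshold. The Igfbp4 probe A_52_P257502 alone passed elsewhere, with 1 member in place of 0: in high against low drinkers with scan day as a fixed block (-0.78, 10.8% of all probes passed), in early high drinkers against water with only the groups compared (0.58, 0.63%), and, with arrays left out one at a time (0 to 1 members), in low drinkers against water (1.12, 9.37%) and high against low drinkers (-0.78, 8.82%) without low drinker pool 1. In 3 of these 4 settings 1 of 20 is below the share over all probes. The members with an exact permutation p under 0.05, not adjusted over the members, numbered 1 to 2 with one array left out. The second was Igf1r without low drinker pool 1 (exact permutation p = 0.0424). In that setting 9.04% of all probes had an unadjusted p under 0.05 in limma. The share over all probes by permutation was not computed. Directions turned for alcohol against water in Igf1r (-0.0397) and Igfbp4 (-0.0983, also low drinkers against water) with slide or scan day as a fixed block, in Igfbp5 with array medians (-0.0264) or normexp (-0.0043), in Igf2r without low drinker pools 2 and 3, chosen after seeing the data (0.0099), in Igfbp2 with one array left out (-0.0815 to 0.2941) and in Igfbp5 likewise (-0.0016 to 0.0505). With slide as a fixed block 5 of the 20 member probes turned in alcohol, 4 in low, 9 in early high and 10 in late high drinkers against water, 6 in high against low and 3 in late against early high drinkers. The blocked contrasts with water all rest on low drinker pool 1, the sole alcohol pool on slide 1. The cause was not tested. Array medians moved the median of all probes by -0.15 in low drinkers against water and by 0.13 in high against low drinkers, and no scaling by 0.12 to 0.15 in the contrasts with late high drinkers. Pairs of equal number correlated between -0.089 and 0.183, so numbers do not pair the pools, and with the replicate block alcohol against water gave 0 members and 1684 probes at an unadjusted p under 0.05. The permutation count of single members was not run with slide as a block.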
